A study of Homo sapiens and Mus musculus with 21 samples.

Results

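The ATF4 and unfolded protein response module was followed across 21 RNA sequencing libraries of cells from mesothelioma, a cancer of the lining around the lung. Its members were 34 genes given by name and matched by symbol, out of 60674 genes in each of the human tables and 41214 in the mouse table. They fall into an ATF4 arm of 20 genes and an endoplasmic reticulum (ER) chaperone arm of 14 genes. All 34 matched 1 gene in each table, by the same symbol in the human tables and by the mouse ortholog's symbol in the mouse table, and all 34 passed the filter on low counts. The knockdown table held 2 human lines, MSTO-211H and H2810, that carried either a BAP1 shRNA (shBAP1) or a random shRNA. The drug table held H2731, labelled BAP1 mutated, and H2810, labelled BAP1 wildtype, each with GSK126, an inhibitor of the histone methyltransferase EZH2, or with its vehicle DMSO. Each human group had 2 libraries. The mouse table held mesothelioma cells of 2 genotypes: BNC (Bap1-/-;Nf2-/-;Cdkn2ab-/-, 3 libraries) and NC (Nf2-/-;Cdkn2ab-/-, 2 libraries), so that both groups lack Nf2 and Cdkn2ab. BAP1 is a deubiquitinase that acts on histone H2A, and it is often lost in mesothelioma. H2810, MSTO-211H and H2731 are cell lines from human pleural tumours, and each stands for 1 tumour. The sources used here do not give the dose, the treatment times, the hairpin sequences, the sex or age of the mice, or how the mouse alleles were deleted. Nothing in the labels makes replicates separate cultures, and a p-value then measures only the spread between these libraries, which may be technical.

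When unfolded protein accumulates in the ER, sensors in its membrane start a programme called the unfolded protein response. The sensor kinase IRE1 splices the XBP1 transcript, ATF6 is cleaved into a transcription factor, and the pair raise chaperones, folding enzymes and the machinery that returns failed proteins to the cytosol for degradation. The kinase PERK phosphorylates the translation factor eIF2alpha, as GCN2 does when amino acids run short, and this slows general translation while the ATF4 transcript is translated more. ATF4 then switches on amino acid transporters, enzymes of serine, glycine and asparagine synthesis, mitochondrial one-carbon enzymes and stress genes such as DDIT3. ATF4 is thus set largely at translation, and XBP1 by splicing, and counts of reads per gene see neither step.

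Levels are CPM, read counts divided by the TMM-adjusted library total and put on a common scale. A change is an edgeR log2 fold change ± its SE, positive where the first-named group is higher. A gene was called at a Benjamini-Hochberg adjusted p under 0.05, adjusted over all genes tested in that table, and "rose", "fell", "higher" or "lower" is written of a member's change only where it was called. Library totals ran from 13693927 to 23217215 counts. BAP1 checked the knockdown labels: it had 13.4 and 20.3 CPM in H2810 with shBAP1, against 115 and 117 with the random shRNA, and 15.4 and 17.7 CPM in MSTO-211H with shBAP1, against 100 and 103. H2731 had 70.4 and 68.9 CPM of BAP1 with DMSO, against 148 and 144 in H2810. Mouse Bap1 had 30.5, 33.3 and 44.1 CPM in BNC and 60.2 and 62.0 CPM in NC, and since the deleted part of the gene is not given, this count is no full check. Replicates of the H2810 knockdown groups differed more than those of MSTO-211H. Chi-square per degree of freedom between their counts was 16.29 for shBAP1 and 16.52 for the random shRNA, against 2.18 and 2.21 in MSTO-211H. In the drug table it was 6.16 for H2810 with DMSO and 1.99 with GSK126, and 2.41 and 3.64 in H2731. All groups of a table share 1 estimate of each gene's spread. A p-value may therefore be too small where replicates differ more, as in the H2810 knockdown groups. Of 10 mesothelial markers, 6 reached 1 CPM in every library of each human group. Summed leukocyte markers were at most 4.04 CPM and summed epithelial markers at most 8.97 CPM in any human library. Summed fibroblast markers, which are led by collagens that mesenchymal tumour cells can also make, were 7338 to 10464 CPM in the libraries of H2810, 920 to 1206 CPM in MSTO-211H and 8.18 to 9.65 CPM in H2731.

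Promoter sequences were searched for the known response elements of both arms. Windows from 250 bases before to 50 after the start were taken from RefSeq (GRCh38.p14) for 30 of the 34 members, and both strands were read for 3 motifs. The ER stress response element ERSE (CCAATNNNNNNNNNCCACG) is bound by ATF6 with NF-Y, ERSE-II (ATTGG and CCACG around 1 free base) by ATF6 or XBP1, and the C/EBP-ATF response element CARE (TGATGNAA) by ATF4 with a C/EBP partner. ERSE was present in 6 of the 14 ER chaperone arm members and in 0 of the 16 ATF4 arm members with a window, while 0.0773% of all 34943 windows hold it. These members have 17 and 24 windows, since a gene can have more than 1. Counts of members and shares of windows are therefore unlike measures. ERSE-II was present in HERPUD1 and SDF2L1 of the ER arm and in 0 members of the ATF4 arm, and in 0.0544% of all windows. CARE was present in 4 of the 16 ATF4 arm members with a window (ATF3, ASNS, CHAC1 and CEBPG). It was present in 1 of the 14 ER arm members (HERPUD1), and in 3.62% of all windows. A match describes letters only, and no 2 matches printed here overlap. All matches are shown, on each gene's own strand with the motif in capitals, because the genes with them recur in the results. A motif on the other strand appears as its reverse complement, which starts with CGTGG for ERSE and ERSE-II and with TT for CARE. The ERSE matches were these.
HSPA5, chr9:125241371-125241429, minus strand: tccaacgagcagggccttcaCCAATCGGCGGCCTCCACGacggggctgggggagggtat
HSP90B1, distal, chr12:103930196-103930254, plus strand: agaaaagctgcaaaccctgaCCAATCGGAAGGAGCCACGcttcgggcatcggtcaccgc
HSP90B1, proximal, chr12:103930301-103930359, plus strand: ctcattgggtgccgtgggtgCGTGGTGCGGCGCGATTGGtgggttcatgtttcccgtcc
CALR, chr19:12938364-12938422, plus strand: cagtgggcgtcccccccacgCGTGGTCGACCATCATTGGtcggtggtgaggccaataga
PDIA6, chr2:10812833-10812891, minus strand: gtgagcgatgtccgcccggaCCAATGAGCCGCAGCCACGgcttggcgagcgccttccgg
CRELD2, chr22:49918534-49918592, plus strand: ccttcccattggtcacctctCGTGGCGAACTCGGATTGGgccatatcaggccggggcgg
XBP1, chr22:28800583-28800641, minus strand: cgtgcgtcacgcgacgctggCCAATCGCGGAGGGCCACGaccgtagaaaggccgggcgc
The ERSE-II matches, and then the CARE matches, were these.
HERPUD1, chr16:56932005-56932055, plus strand: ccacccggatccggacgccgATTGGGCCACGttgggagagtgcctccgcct
SDF2L1, chr22:21642094-21642144, plus strand: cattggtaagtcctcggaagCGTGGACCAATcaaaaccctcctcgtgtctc
ASNS, chr7:97872449-97872496, minus strand: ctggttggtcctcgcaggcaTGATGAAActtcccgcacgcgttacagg
ATF3, chr1:212565196-212565243, plus strand: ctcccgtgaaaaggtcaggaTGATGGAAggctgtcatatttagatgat
CHAC1, chr15:40953242-40953289, plus strand: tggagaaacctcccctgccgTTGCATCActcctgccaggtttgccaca
CEBPG, chr19:33374051-33374098, plus strand: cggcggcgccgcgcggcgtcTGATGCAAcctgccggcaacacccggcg
HERPUD1, upstream, chr16:56931946-56931993, plus strand: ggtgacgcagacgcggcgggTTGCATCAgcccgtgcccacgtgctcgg

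The genes' own positions come from the human tables, whose build the sources used here do not give; their coordinates were set beside the GENCODE v44 annotation of GRCh38. ATF4 (ENSG00000128272) lies on the plus strand of chromosome 22 from 39519672 to 39522683. SLC7A5 (ENSG00000103257) lies on the minus strand of chromosome 16 from 87830023 to 87869507, and HSPA5 (ENSG00000044574) on the minus strand of chromosome 9 from 125234853 to 125241343. XBP1 (ENSG00000100219) lies on the minus strand of chromosome 22 from 28794555 to 28800597, and HERPUD1 (ENSG00000051108) on the plus strand of chromosome 16 from 56932142 to 56944864. ASNS (ENSG00000070669) lies on the minus strand of chromosome 7 from 97851677 to 97872542, and 49.3% of its exon length is shared with AC079781.5 on the same strand. Reads in shared exons may not have been counted for either gene, so human ASNS levels are uncertain. DDIT3 shares 39.6% of its exon length with MARS1 on the opposite strand and PDIA6 shares 25.2% with ATP6V1C2 on the opposite strand. The labels leave the strand setting of the counting open, so how reads in these shared stretches were counted is not known. They too may not have been counted for either gene, and the same holds for smaller shares of MTHFD2 (14.1%) and CEBPB (12.6%).

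Under control conditions MSTO-211H had far higher levels of the ATF4 arm than H2810. With the random shRNA, 20 of the 20 ATF4 arm members were called, 16 higher and 4 lower in MSTO-211H, in a comparison that called 79.7% of all genes tested (39% higher and 40.7% lower). Their median log2 change was 1.85, beside -0.03 over all genes tested, and their median absolute change was 2.24, beside 0.82. The ER chaperone arm had 6 higher and 7 lower of 14, with a median of -0.04 and a median absolute change of 0.44. The libraries of MSTO-211H lay above those of H2810 for 16 ATF4 arm members and 7 ER arm members and below for 4 and 7, while 43.8% of all genes tested lay above and 45.6% below. In this line pair the ATF4 arm therefore held larger differences than the median gene, and the ER arm smaller ones.

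The amino acid transporter and enzyme genes carried much of that difference. SLC7A5, which encodes the leucine transporter LAT1, had 1029 and 1009 CPM in MSTO-211H with the random shRNA, against 96.4 and 95.5 CPM in H2810 (3.41 ± 0.05, adjusted p = 3.64e-13). SHMT2, the mitochondrial enzyme that takes a one-carbon unit from serine, had 669 and 686 CPM, against 124 and 128 (2.43 ± 0.05, adjusted p = 1.92e-12). PSAT1, the aminotransferase of serine synthesis, had 479 and 470 CPM, against 110 and 118 (2.06 ± 0.05, adjusted p = 1.7e-11). In each of the 3 genes the libraries of the lines lay far apart, with no overlap. ASNS, asparagine synthetase, had 7.85 and 7.23 CPM in MSTO-211H, against 1.37 and 1.26 CPM in H2810 (2.51 ± 0.17), within the limit on its counts given above. MTHFD2, the next mitochondrial one-carbon enzyme, and PHGDH, the first enzyme of serine synthesis, were also higher, by 1.49 and 0.93. PSPH, the last enzyme of serine synthesis, went the other way, with 35.0 and 35.2 CPM in MSTO-211H, against 54.4 and 57.4 CPM in H2810 (-0.67 ± 0.06).

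ALDH1L2, the mitochondrial formyltetrahydrofolate dehydrogenase, was all but missing in MSTO-211H. Its libraries with the random shRNA held 2 and 9 reads (0.0957 and 0.434 CPM), against 4037 and 3210 reads (173 and 156 CPM) in H2810. With so few reads in one line the fitted fold change depends on the prior count and is not given. CHAC1, a glutathione-degrading enzyme, showed the reverse: 8.56 and 7.57 CPM in MSTO-211H, against 0.258 and 0.0973 CPM, or 6 and 2 reads, in H2810.

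All 5 stress effectors of the ATF4 arm and 5 of its 7 transcription factors and modulators were higher in MSTO-211H. Of all genes tested 39% were higher and 40.7% lower. TRIB3, a pseudokinase that restrains ATF4 and AKT, had 195 and 211 CPM, against 12.9 and 13.3 CPM in H2810 (3.95 ± 0.07, adjusted p = 7.84e-13). STC2, a secreted glycoprotein, had 235 and 237 CPM, against 30.9 and 33.6 (2.87 ± 0.06). DDIT4, an inhibitor of mTORC1, had 615 and 587 CPM, against 85.7 and 78.1 (2.87 ± 0.06). The 3 genes thus differed by 7.31 to 15.5 fold with no overlap between lines. CEBPG, a C/EBP partner of ATF4, was higher by 1.72 ± 0.05 and DDIT3, which encodes the stress factor CHOP, by 1.97 ± 0.09. ATF4 itself differed much less, with 263 and 252 CPM in MSTO-211H, against 189 and 199 CPM in H2810 (0.41 ± 0.05, adjusted p = 1.14e-05). NUPR1, a small stress-induced chromatin protein, had 0.431 and 0.627 CPM (9 and 13 reads) in MSTO-211H, against 4.38 and 3.94 CPM in H2810, and CEBPB was lower by 0.57 ± 0.06.

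In the ER arm HSPA5, which encodes the chaperone BiP, had 1131 and 1262 CPM in MSTO-211H, against 449 and 482 CPM in H2810 (1.36 ± 0.06, adjusted p = 1.82e-09). HERPUD1, a membrane protein of ER-associated degradation, had 287 and 296 CPM, against 144 and 152 (0.97 ± 0.05). CALR, which encodes the lectin chaperone calreticulin, had 475 and 474 CPM, against 745 and 773 (-0.68 ± 0.04). So BiP and HERPUD1 were higher and calreticulin lower in the same libraries. DNAJB9, a BiP co-chaperone, was higher by 0.55 ± 0.06, and DNAJC3, another co-chaperone, was lower by 0.59 on the log2 scale (-0.59 ± 0.06). HSP90B1, the ER member of the HSP90 family, was higher by 0.46 ± 0.05, and MANF, a secreted survival factor of the ER, was lower (-0.36 ± 0.05). XBP1 had 82.2 and 83.7 CPM in MSTO-211H, against 91.1 and 95.8 CPM in H2810 (-0.17 ± 0.05), a call that was lost with no filter on low counts and without H2810 random shRNA replicate 2 or MSTO-211H random shRNA replicate 1. PDIA4 was the member not called (0.08 ± 0.05).

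**Figure D1:**
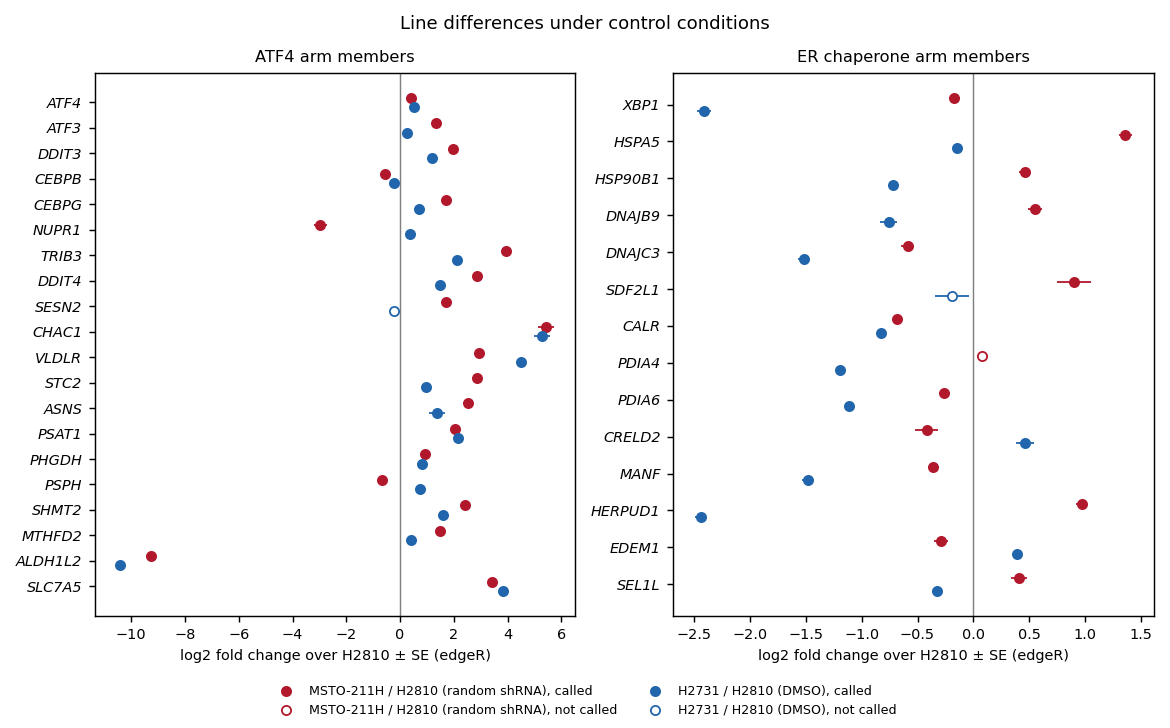
Log2 fold changes ± SE (edgeR) over H2810 for the ATF4 arm (left panel) and the ER chaperone arm (right panel), in MSTO-211H with the random shRNA (red) and in H2731 with DMSO (blue), with filled points for called genes. Most ATF4 arm points lie right of 0 in both lines, with ALDH1L2 far to the left, and ER arm points of H2731 lie mostly left of 0, down to -2.44 for HERPUD1.

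The BAP1-mutated line H2731 was also set against H2810, with DMSO, in a comparison that called 82.2% of all genes tested (41.5% higher and 40.7% lower). In the ATF4 arm 17 of 20 members were higher and 2 lower in H2731, with a median of 0.88 beside 0.01 over all genes tested. In the ER chaperone arm 2 of 14 were higher and 11 lower, with a median of -0.80. The libraries of H2731 lay above those of H2810 for 17 ATF4 arm members and below for 3, while they lay below for 12 of the 14 ER arm members and above for 2. Of all genes tested 45.5% lay above and 44.6% below in this way. The arms thus differed from H2810 in opposite directions in this line. The lines differ in far more than BAP1, so the genotype and the line cannot be told apart. Both line comparisons use H2810, in different libraries.

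SLC7A5 had 848 and 809 CPM in H2731 with DMSO, against 55.3 and 60.7 CPM in H2810 (3.83 ± 0.05, adjusted p = 6.2e-23). PSAT1 had 237 and 236 CPM, against 54.1 and 53.5 (2.14 ± 0.04, adjusted p = 3.61e-20). SHMT2 had 352 and 336 CPM, against 116 and 111 (1.60 ± 0.04, adjusted p = 2.98e-18). Each was several times higher in both libraries of H2731. PSPH was higher here, with 87.2 and 86.7 CPM, against 51.8 and 52.6 CPM (0.74 ± 0.05). ASNS had 1.83 and 2.02 CPM, against 0.856 and 0.634 CPM (1.37 ± 0.30). VLDLR, a lipoprotein receptor induced by ER stress, had 39.8 CPM in both libraries of H2731, against 1.60 and 1.90 CPM in H2810 (4.49 ± 0.10, adjusted p = 9.42e-19). ALDH1L2 was again nearly missing, with 3 and 1 reads in H2731 (0.130 and 0.0506 CPM), against 2263 and 2867 reads in H2810 (129 and 140 CPM). CHAC1 had 7.13 and 7.69 CPM in H2731, against 0.171 and 0.195 CPM, or 3 and 4 reads, in H2810.

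TRIB3 had 47.4 and 39.2 CPM in H2731, against 9.53 and 10.4 CPM in H2810 (2.12 ± 0.09), and DDIT4 had 271 and 260 CPM, against 93.5 and 97.1 (1.48 ± 0.04). DDIT3 had 35.0 and 34.3 CPM, against 16.2 and 14.7 (1.17 ± 0.07). These levels were 2.25 to 4.34 fold those of H2810. ATF4 had 282 and 275 CPM, against 198 and 196 (0.50 ± 0.04, adjusted p = 8.69e-11). Its step was smaller than those of TRIB3, DDIT4 and DDIT3, and it lay at the median (0.50) of the 7 transcription factors and modulators. SESN2, a leucine sensor and stress gene, was the ATF4 arm member not called, with 12.6 and 11.8 CPM in H2731 and 13.7 and 14.4 CPM in H2810.

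HERPUD1 had 32.0 and 31.7 CPM in H2731, against 173 and 172 CPM in H2810 (-2.44 ± 0.05, adjusted p = 2.45e-20). XBP1 had 18.5 and 19.0 CPM, against 104 and 95.7 (-2.41 ± 0.06, adjusted p = 3.87e-18). MANF had 24.6 and 24.3 CPM, against 67.2 and 69.4 (-1.48 ± 0.05). The regulator XBP1 was therefore lower by 5.32 fold, about as much as HERPUD1 at 5.42 fold. DNAJC3 was lower by 1.52 on the log2 scale (-1.52 ± 0.05), the disulfide isomerases PDIA4 and PDIA6 by 1.19 and 1.11 (-1.19 ± 0.03 and -1.11 ± 0.03), and calreticulin by 0.83 (-0.83 ± 0.03). HSPA5 differed little, with 594 and 579 CPM in H2731, against 643 and 656 CPM in H2810 (-0.15 ± 0.03, adjusted p = 0.000345). The 2 members that were higher were CRELD2, a secreted ER stress protein (0.46 ± 0.08), and EDEM1, which feeds misfolded glycoproteins to degradation (0.39 ± 0.04). SDF2L1, a BiP cofactor, was not called.

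Lists of other pathway genes were read in the same 2 comparisons, with mixed directions. Over all genes tested, 39% were higher and 40.7% lower in MSTO-211H, and 41.5% higher and 40.7% lower in H2731. All 12 aminoacyl-tRNA synthetases tested were higher in MSTO-211H than in H2810 with the random shRNA, with AARS1 at 1356 ± 57.7 CPM in MSTO-211H and 326 ± 4.17 CPM in H2810 (2.06 ± 0.06). There, of 18 further ATF4 targets and amino acid transporters, 15 were higher and 2 lower, among them GDF15, a secreted stress cytokine, at 187 CPM in MSTO-211H and 0.781 CPM in H2810. Of 18 ER folding and export genes 7 were higher and 7 lower in MSTO-211H, of 11 tested genes of ER-associated degradation 1 was higher and 7 lower, and of 11 sensors, kinases and phosphatase subunits 6 were higher and 5 lower. In H2731 with DMSO, 9 of the 12 synthetases were higher and 2 lower, and of the further ATF4 targets 10 were higher and 7 lower, close to an even split. Of the ER folding and export genes 6 were higher and 11 lower there, of 12 degradation genes 3 higher and 5 lower, and of the sensors and their partners 2 higher and 7 lower. SEC24D, a coat protein of vesicles that leave the ER, had 21.3 CPM in H2731 and 168 CPM in H2810 (-2.98 ± 0.05). ERN1, which encodes the sensor IRE1, was at 187 CPM in MSTO-211H and 35.5 CPM in H2810 with the random shRNA (2.40 ± 0.08).

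Divided by exon length (CPM per kilobase of annotated exon, RPKM), the levels of members were ranked within a group. The length joins the exons of all annotated transcripts of a gene, so these ranks depend on the annotation. HSP90B1 is given 13092 bases in human and 4032 in mouse, and CALR 2802 in human. By CPM alone HSP90B1 lay above CALR in H2810 with the random shRNA (1128 against 759 CPM). ATF4 ranked first in its arm in H2810 with the random shRNA (74.1 RPKM) and with DMSO (75.4 RPKM). In MSTO-211H with the random shRNA DDIT4 ranked first (284 RPKM), followed by PSAT1 (215 RPKM) and SLC7A5 (214 RPKM), and in H2731 with DMSO SLC7A5 ranked first (174 RPKM), followed by DDIT4 (125 RPKM) and PSAT1 and ATF4 (both 107 RPKM). In the ER arm CALR ranked first in H2810 and H2731 in all their groups, at 271 RPKM in H2810 with the random shRNA and 197 RPKM in H2731 with DMSO. HSPA5 ranked first in MSTO-211H with the random shRNA (183 RPKM, against 169 RPKM for CALR) and second with shBAP1 (148 RPKM, against 189 RPKM for CALR).

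In H2810, 12 ATF4 arm members rose by modest amounts with knockdown of BAP1, and the ATF4 transcript was not called. Of the 20 members 12 rose and 2 fell with shBAP1, where 45.8% of the genes tested passed (22.5% higher and 23.3% lower). The count of 2 that fell was 0 under DESeq2, without the filter on counts, and without H2810 shBAP1 replicate 1 or random shRNA replicate 2, and 1 under 4 further alternatives, among them those without either MSTO-211H random shRNA library. The arm's median log2 change was 0.30, beside -0.03 over all genes tested, with a median absolute change of 0.31 beside 0.29. Of the 14 ER chaperone arm members 4 rose and 3 fell, with a median of 0.03. Both shBAP1 libraries lay above both control libraries for 15 ATF4 arm members and 5 ER arm members and below for 3 and 6, while 33.2% of all genes tested lay above and 36.3% below. Summed fibroblast markers ran from 7338 to 8234 CPM with shBAP1 and from 9897 to 10464 CPM with the random shRNA in H2810, and their part in these changes was not tested. The comparison of lines above shares the libraries with the random shRNA.

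Of the 8 transporter and enzyme genes of amino acid and one-carbon metabolism 6 rose and 1 fell. Of all genes tested 22.5% rose and 23.3% fell. SLC7A5 had 154 and 146 CPM in H2810 with shBAP1, against 96.4 and 95.5 CPM with the random shRNA (0.64 ± 0.05, adjusted p = 1.81e-06). SHMT2 had 179 and 177 CPM, against 124 and 128 (0.50 ± 0.05, adjusted p = 6.86e-06). PSAT1 had 163 and 168 CPM, against 110 and 118 (0.54 ± 0.05, adjusted p = 1.13e-05). All 3 rose by 1.42 to 1.56 fold, with both knockdown libraries above both control libraries. PHGDH had 190 CPM in both libraries with shBAP1, against 140 and 152 CPM (0.38 ± 0.05), and MTHFD2 and ALDH1L2 rose by 0.21 and 0.25. PSPH fell, with 48.6 and 50.8 CPM, against 54.4 and 57.4 (-0.17 ± 0.06). Its call was lost with DESeq2, without the filter on counts, and without H2810 shBAP1 replicate 1 or random shRNA replicate 2. ASNS had 1.76 and 1.53 CPM, against 1.37 and 1.26 CPM, and was not called.

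Among the stress genes STC2 had 44.9 and 45.6 CPM with shBAP1, against 30.9 and 33.6 CPM (0.49 ± 0.06, adjusted p = 5.1e-05). ATF3, a transcription factor induced downstream of ATF4, had 24.4 and 24.8 CPM, against 15.9 and 15.7 (0.64 ± 0.09, adjusted p = 0.000144). VLDLR had 3.43 and 2.76 CPM, against 1.55 and 1.60 (0.98 ± 0.19). These stress genes rose with no overlap between groups. CEBPG rose by 0.30 ± 0.06, and SESN2 and DDIT4 by 0.29 and 0.25, while CEBPB fell (-0.19 ± 0.06). The call of CEBPB was lost, like that of PSPH, under the alternatives that left 0 members called lower, among them DESeq2. ATF4 had 194 CPM in both libraries with shBAP1, against 189 and 199 CPM with the random shRNA (0.00 ± 0.05, adjusted p = 0.969). DDIT3 had 15.8 and 17.5 CPM, against 15.2 and 15.7, and was not called, nor was TRIB3, at 11.9 and 11.2 CPM against 12.9 and 13.3.

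In the ER arm XBP1 had 139 and 141 CPM with shBAP1 in H2810, against 91.1 and 95.8 CPM with the random shRNA (0.58 ± 0.05, adjusted p = 3.28e-06). SEL1L, the scaffold of the main ER degradation ligase, had 102 and 86.9 CPM, against 156 and 146 (-0.68 ± 0.07, adjusted p = 1.53e-05). HERPUD1 had 114 and 117 CPM, against 144 and 152 (-0.36 ± 0.05, adjusted p = 0.000124). The regulator thus rose while a pair of degradation genes fell in the same libraries. HSPA5 had 564 and 539 CPM, against 449 and 482 (0.24 ± 0.06, adjusted p = 0.00683), DNAJB9 rose by 0.42 ± 0.06 and CALR by 0.20 ± 0.04. PDIA4 was called at -0.14 ± 0.05 (adjusted p = 0.0336), a call lost under 11 of the 15 alternatives, and the other 7 members were not called.

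**Figure D2:**
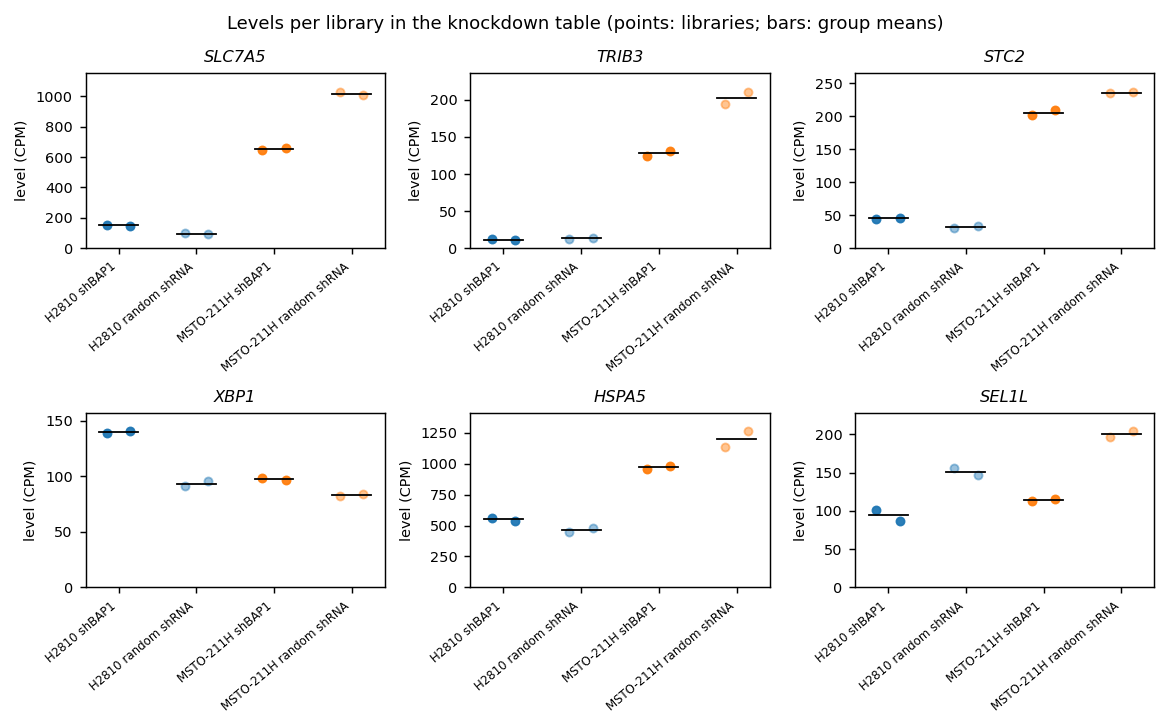
CPM in each library (points) and group mean (bars) for members of both arms with shBAP1 (left) and random shRNA (right of it) in H2810 and MSTO-211H. SLC7A5 and STC2 are higher with shBAP1 in H2810 and lower with shBAP1 in MSTO-211H, and SEL1L is lower with shBAP1 in both lines.

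In MSTO-211H the same knockdown gave a mixed picture. With shBAP1, 5 of 20 ATF4 arm members rose and 9 fell, where 46.2% of the genes tested passed (21.7% higher and 24.5% lower), and the arm's median was -0.07 beside -0.02 over all genes. The count of 14 called was 9 with DESeq2 and 9 without MSTO-211H shBAP1 replicate 2. The 5 that rose were 3 with DESeq2 and without MSTO-211H shBAP1 replicate 2 or random shRNA replicate 2. Of the 14 ER chaperone arm members 2 rose and 7 fell, with a median of -0.06. Both shBAP1 libraries lay above both control libraries for 8 ATF4 arm members and 6 ER arm members and below for 10 and 7, while 36.1% of all genes tested lay above and 39.5% below. Summed mesothelial markers ran from 421 to 439 CPM with shBAP1 and from 304 to 324 CPM with the random shRNA, and summed leukocyte markers from 3.17 to 3.22 CPM and from 0.431 to 0.579 CPM, and their part was not tested.

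SLC7A5 had 649 and 662 CPM in MSTO-211H with shBAP1, against 1029 and 1009 CPM with the random shRNA (-0.64 ± 0.05, adjusted p = 1.13e-06). TRIB3 had 124 and 131 CPM, against 195 and 211 (-0.67 ± 0.05, adjusted p = 2.56e-06). ASNS had 4.71 and 5.16 CPM, against 7.85 and 7.23 (-0.61 ± 0.13, adjusted p = 0.00306), a call that was lost with DESeq2. The transporter, the pseudokinase and the synthetase thus fell by 1.53 to 1.59 fold, with no overlap. PSPH fell by 0.42 (-0.42 ± 0.06), PHGDH by 0.22 (-0.22 ± 0.05), and SHMT2 and STC2 by 0.20 each. The call of PHGDH was lost without MSTO-211H shBAP1 replicate 2 or random shRNA replicate 2. CEBPB and DDIT4 fell too (-0.24 and -0.15).

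Members that rose in MSTO-211H were ATF3, PSAT1, SESN2, CHAC1 and VLDLR. ATF3 had 54.3 and 56.3 CPM with shBAP1, against 36.1 and 43.0 CPM with the random shRNA (0.49 ± 0.07, adjusted p = 0.000264). PSAT1 had 595 and 572 CPM, against 479 and 470 (0.30 ± 0.05, adjusted p = 0.000595). CHAC1 had 10.3 and 11.9 CPM, against 8.56 and 7.57 (0.46 ± 0.13). The groups did not overlap for these. ATF4 had 261 and 250 CPM, against 263 and 252 CPM (-0.01 ± 0.05, adjusted p = 0.849) and was not called in this line either. The sign of that value turned under 4 alternatives. DDIT3 had 69.0 and 68.8 CPM, against 55.0 and 65.5 CPM, and was not called (0.19 on the log2 scale, adjusted p = 0.0573, edgeR), but it was called under 8 of 15 alternatives, with values of 0.07 to 0.32 over all 15.

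In the ER arm SEL1L had 113 and 115 CPM with shBAP1 in MSTO-211H, against 197 and 204 CPM with the random shRNA (-0.82 ± 0.07, adjusted p = 3.19e-06). MANF had 28.6 and 30.0 CPM, against 41.8 and 44.1 (-0.55 ± 0.06, adjusted p = 1.6e-05). HSPA5 had 957 and 982 CPM, against 1131 and 1262 (-0.30 ± 0.06, adjusted p = 0.0017). Each fell with both knockdown libraries below both control libraries. PDIA4, HSP90B1 and DNAJC3 fell by 0.37, 0.36 and 0.34 (-0.37 ± 0.05, -0.36 ± 0.05 and -0.34 ± 0.06), and PDIA6 by 0.16. XBP1 rose, with 98.4 and 97.0 CPM, against 82.2 and 83.7 (0.24 ± 0.05, adjusted p = 0.00217). CALR was called at 0.16 ± 0.04, a call lost with no filter on low counts and without any single library of MSTO-211H. The other 5 members, DNAJB9, SDF2L1, CRELD2, HERPUD1 and EDEM1, were not called.

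**Figure D3:**
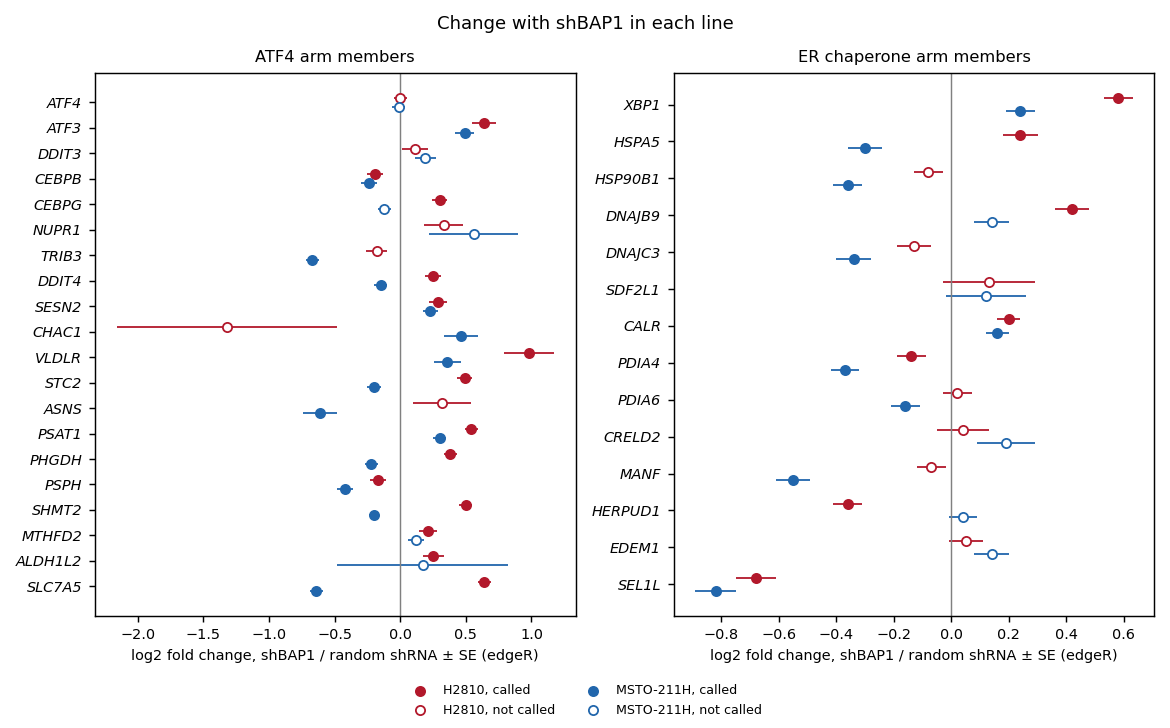
Log2 fold change ± SE (edgeR) of shBAP1 over random shRNA for each member, in H2810 (red) and MSTO-211H (blue), with filled points for called genes. SLC7A5 lies at 0.64 in H2810 and -0.64 in MSTO-211H, and SEL1L lies left of 0 in both lines.

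The response to knockdown was compared between lines by subtracting the change in H2810 from that in MSTO-211H. It rests on the same 8 libraries as the comparisons within lines. It was called for 10 of 20 ATF4 arm members, all 10 lower in MSTO-211H, and for 7 of 14 ER chaperone arm members, 1 higher and 6 lower. The share called among all genes was 27.7% (11.2% higher and 16.5% lower). The median difference was -0.25 for the ATF4 arm and -0.19 for the ER arm, beside -0.02 over all genes. SLC7A5 had the smallest p (-1.28 ± 0.07, adjusted p = 3.99e-07), since it rose by 0.64 in H2810 and fell by 0.64 in MSTO-211H. SHMT2, STC2 and PHGDH, which also rose in H2810 and fell in MSTO-211H, differed by -0.70 ± 0.06, -0.69 ± 0.08 and -0.60 ± 0.07. HSPA5 and MANF led the ER arm (-0.55 ± 0.09 and -0.48 ± 0.08), and HERPUD1 was the member with a higher response in MSTO-211H (0.40 ± 0.07). ATF4 did not pass (-0.01 in MSTO-211H and 0.00 in H2810), nor did DDIT3. The call of ASNS (-0.93 ± 0.26) was lost under 4 alternatives and those of DNAJB9 and PDIA4 (-0.28 ± 0.08 and -0.23 ± 0.07) under 9 each.

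Other pathway genes were read with shBAP1 too, where 22.5% of all genes tested rose and 23.3% fell in H2810, and 21.7% and 24.5% in MSTO-211H. In H2810, 11 of 12 aminoacyl-tRNA synthetases rose and 1 fell. WARS1, the tryptophan enzyme, had 442 CPM with shBAP1 and 255 CPM with the random shRNA there (0.79 ± 0.05). In MSTO-211H 5 of the 12 rose and 4 fell, with YARS1, the tyrosine enzyme, at 286 CPM with shBAP1 and 412 CPM with the random shRNA (-0.52 ± 0.05). The difference between the responses was called for 8 of the 12, all lower in MSTO-211H, beside 16.5% of all genes tested called lower. Of 18 further ATF4 targets and transporters 12 rose and 1 fell in H2810, led by the transcription factor ATF5 (0.89 ± 0.06) and the alanine aminotransferase GPT2 (0.72 ± 0.05), and 5 rose and 5 fell in MSTO-211H. PPP1R15A, the phosphatase subunit that reverses eIF2alpha phosphorylation, fell in MSTO-211H with shBAP1 (-0.83 ± 0.06), where 3 of 11 sensors, kinases and phosphatase subunits rose and 5 fell. SLC3A2, which encodes the heavy chain that pairs with the SLC7A5 protein, had a lower response in MSTO-211H (difference -0.82 ± 0.07). EIF2AK2, the interferon-induced eIF2alpha kinase PKR, rose in H2810 (0.73 ± 0.05, adjusted p = 1.5e-06), where 4 of 11 sensors, kinases and phosphatase subunits rose and 0 fell. Of 18 ER folding and export genes 9 rose and 2 fell in H2810, and 3 rose and 7 fell in MSTO-211H, where the translocon gene SEC61A1 was at 309 CPM with shBAP1 and 436 CPM with the random shRNA (-0.50 ± 0.04). Of the 11 tested genes of ER-associated degradation 4 rose and 1 fell in H2810, and 2 rose and 3 fell in MSTO-211H.

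GSK126 raised STC2, NUPR1, VLDLR and DDIT3 in both lines, with a mixed picture in the rest of the module. In H2810, 6 of 20 ATF4 arm members rose and 6 fell, where 29.3% of the genes tested passed (16.3% higher and 12.9% lower), and the arm's median was 0.08 beside 0.00 over all genes. Of the 14 ER arm members 2 rose and 5 fell, with a median of -0.06. In H2731, 9 of 20 ATF4 arm members rose and 1 fell, where 24.7% were called (13.8% higher and 10.9% lower), and the arm's median was 0.16. Of the 14 ER arm members 5 rose and 0 fell, with a median of 0.07. In H2810 the GSK126 libraries lay above the DMSO libraries for 9 ATF4 arm members and 5 ER arm members and below for 8 and 7, while 32.4% of all genes tested lay above and 30.3% below. In H2731 they lay above for 13 and 10 and below for 1 and 2, while 30.3% of all genes tested lay above and 29.2% below. The ER arm count of 5 in H2731 was 2 with DESeq2, 3 without H2731 GSK126 replicate 1 and 2 without H2731 DMSO replicate 1. Summed mesothelial markers ran from 1180 to 1186 CPM with GSK126 and from 1734 to 1901 CPM with DMSO in H2731, and summed endothelial markers from 19.5 to 19.9 CPM with GSK126 and from 11.4 to 11.7 CPM with DMSO in H2810. Their part in the drug's changes was not tested.

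STC2 had 49.7 and 53.7 CPM in H2810 with GSK126, against 25.5 and 30.0 CPM with DMSO (0.89 ± 0.07, adjusted p = 4.63e-09). In H2731 it had 89.5 and 89.9 CPM with GSK126, against 55.3 and 53.3 CPM with DMSO (0.72 ± 0.06, adjusted p = 9.06e-09). NUPR1 had 14.6 and 16.3 CPM in H2810 with GSK126, against 7.59 and 7.22 CPM (1.06 ± 0.10, adjusted p = 8.72e-08). The drug groups did not overlap the vehicle groups for these genes in either line. NUPR1 in H2731 had 14.4 and 13.7 CPM with GSK126, against 9.61 and 9.57 CPM (0.55 ± 0.09, adjusted p = 0.000162). VLDLR had 3.01 and 3.35 CPM in H2810 with GSK126, against 1.60 and 1.90 CPM (0.85 ± 0.19), and 49.3 and 50.2 CPM in H2731, against 39.8 CPM in both DMSO libraries (0.32 ± 0.05). DDIT3 had 19.9 and 19.0 CPM in H2810 with GSK126, against 16.2 and 14.7 CPM (0.33 ± 0.08), a call lost without H2810 DMSO replicate 2. In H2731 it had 39.6 and 38.7 CPM, against 35.0 and 34.3 (0.18 ± 0.06, adjusted p = 0.0296), a call lost with DESeq2 and without any single library of H2731.

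ATF4 had 171 and 174 CPM in H2810 with GSK126, against 198 and 196 CPM with DMSO (-0.19 ± 0.04, adjusted p = 0.000512). In H2731 it had 300 and 289 CPM, against 282 and 275 CPM, and was not called. Of the 4 contrasts within a human line, this was the 1 that called ATF4. Of the 8 metabolic members 0 rose and 4 fell in H2810, where 16.3% of all genes tested rose and 12.9% fell. PSPH fell by 0.29 (-0.29 ± 0.05), and ALDH1L2, MTHFD2 and PHGDH by 0.21, 0.20 and 0.16 (-0.21 ± 0.05, -0.20 ± 0.04 and -0.16 ± 0.04). DDIT4 fell there by 0.18. CEBPB rose by 0.22 ± 0.05 and SESN2 by 0.28 ± 0.09. In H2731 SLC7A5 had 948 and 935 CPM with GSK126, against 848 and 809 CPM (0.18 ± 0.04, adjusted p = 0.00189), and PSAT1 rose by 0.17 ± 0.03. TRIB3 had 57.2 and 56.0 CPM, against 47.4 and 39.2 (0.38 ± 0.07), ATF3 rose by 0.41 ± 0.08 and CEBPG by 0.21 ± 0.05, while DDIT4 fell (-0.15 ± 0.04), a call lost with DESeq2 and without H2731 GSK126 replicate 2 or DMSO replicate 1. ASNS was not called in either line, at 0.831 and 0.558 CPM with GSK126 and 0.856 and 0.634 CPM with DMSO in H2810, and at 1.85 and 1.46 CPM against 1.83 and 2.02 CPM in H2731.

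In the ER arm HERPUD1 had 137 CPM in both libraries of H2810 with GSK126, against 173 and 172 CPM with DMSO (-0.34 ± 0.04, adjusted p = 1.37e-06). XBP1 had 84.4 and 83.8 CPM, against 104 and 95.7 (-0.25 ± 0.05, adjusted p = 0.000752). EDEM1 had 147 and 141 CPM, against 117 and 129 (0.23 ± 0.05, adjusted p = 0.000697). The fall of HERPUD1 and the rise of EDEM1 put genes of the same degradation pathway on opposite sides. DNAJC3 and HSP90B1 fell by 0.23 and 0.16 (-0.23 ± 0.05 and -0.16 ± 0.03), CALR rose by 0.14 ± 0.03, and the call of SEL1L (-0.12 ± 0.04) was lost under 5 alternatives. In H2731 DNAJC3 had 51.2 and 55.1 CPM with GSK126, against 41.3 and 37.2 CPM with DMSO (0.43 ± 0.06, adjusted p = 1.52e-05). EDEM1 had 191 and 195 CPM, against 161 and 160 (0.27 ± 0.04, adjusted p = 0.00011). DNAJB9, HERPUD1 and SEL1L were called at 0.31 ± 0.09, 0.18 ± 0.05 and 0.13 ± 0.04, and each of these calls was lost with DESeq2 and without 2 or 3 single libraries of H2731 in turn. HSPA5 was not called in either line, at 623 and 620 CPM with GSK126 and 643 and 656 CPM with DMSO in H2810, and at 605 and 613 CPM against 594 and 579 CPM in H2731. XBP1 was not called in H2731, at 18.1 and 20.1 CPM against 18.5 and 19.0 CPM.

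**Figure D4:**
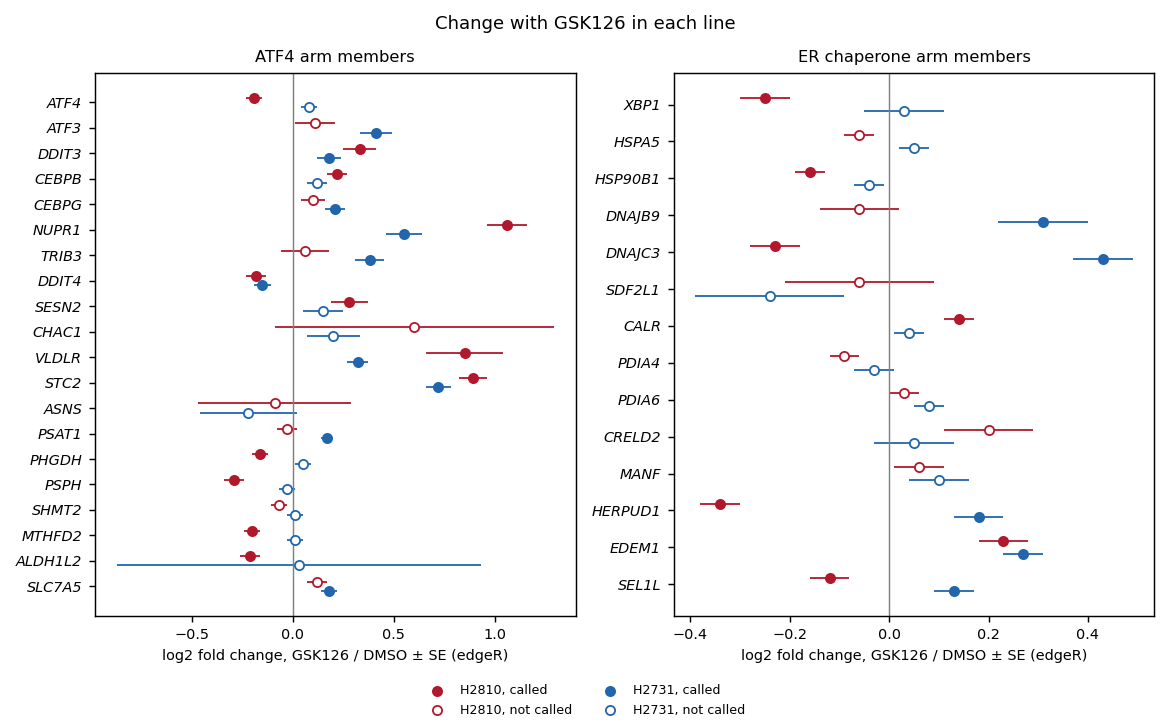
Log2 fold change ± SE (edgeR) of GSK126 over DMSO for each member, in H2810 (red) and H2731 (blue), with filled points for called genes. STC2, NUPR1 and VLDLR lie right of 0 in both lines, and HERPUD1 and DNAJC3 lie left of 0 in H2810 and right of 0 in H2731.

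The difference of drug effects, H2731 minus H2810, was called for 6 of 20 ATF4 arm members (5 higher, 1 lower) and for 4 of 14 ER arm members (4 higher), where 14.7% of the genes tested passed (8.08% higher and 6.66% lower). The ATF4 arm count was 2 with DESeq2, and 3 without H2810 GSK126 replicate 1 or 2. DNAJC3 and HERPUD1, which fell in H2810 and rose in H2731, differed by 0.67 ± 0.08 (adjusted p = 3.09e-06) and 0.52 ± 0.07 (adjusted p = 1.22e-05). ATF4 differed by 0.27 ± 0.05 (adjusted p = 0.000835), and SEL1L by 0.25 ± 0.06. NUPR1 had the smaller rise in H2731 (-0.51 ± 0.14, adjusted p = 0.0142). The metabolic genes MTHFD2, PSPH, PHGDH and PSAT1 differed by 0.21 to 0.25, and each of these calls was lost under 1 to 5 alternatives, as those of NUPR1 and DNAJB9 were under 3 and 7. The difference for STC2, VLDLR and DDIT3 was not called.

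Other pathway genes with GSK126 moved by small amounts. Over all genes tested, 16.3% rose and 12.9% fell in H2810, and 13.8% rose and 10.9% fell in H2731. Counts near these shares are no result about a list. In H2810, 0 of 12 aminoacyl-tRNA synthetases rose and 7 fell, with EPRS1 at -0.33 ± 0.04, and in H2731 2 rose and 1 fell. Of 18 further ATF4 targets and transporters 6 rose and 8 fell in H2810, with the glutamine transporter SLC38A2 at -0.44 ± 0.03, and 7 rose and 1 fell in H2731, with the cystine transporter SLC7A11 at 671 CPM with GSK126 and 513 CPM with DMSO (0.39 ± 0.04). EIF2AK3, which encodes PERK, rose in H2731 (27.2 CPM with GSK126 and 18.3 CPM with DMSO, 0.56 ± 0.07). ERO1A, the oxidase that drives disulfide bonds in the ER, rose there as well (0.47 ± 0.05), and WFS1, an ER membrane protein, rose in both lines (0.46 ± 0.06 in H2810 and 0.47 ± 0.07 in H2731). Of 11 sensors, kinases and phosphatase subunits 2 rose and 4 fell in H2810, and 2 rose and 0 fell in H2731. Of 18 ER folding and export genes 3 rose and 4 fell in H2810, and 3 rose and 0 fell in H2731. Of 12 genes of ER-associated degradation 0 rose and 4 fell in H2810, and 1 rose and 2 fell in H2731, with the ligase gene SYVN1 lower in both (-0.20 ± 0.05 and -0.15 ± 0.04).

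In the mouse cells no member passed the edgeR test between BNC and NC. With 12225 genes tested, edgeR called 0 members of either arm and 0 genes overall (0%), while 823 genes and 1 member had an unadjusted p under 0.05. DESeq2 called 302 genes and 1 member, Cebpb (0.91 ± 0.25, adjusted p = 0.0178), and limma-voom called 0 genes, with 802 at an unadjusted p under 0.05. Mouse Cebpb shares 20.7% of its exon length with Tmem189 on the opposite strand, and Aldh1l2 shares 14.1% with D10Wsu102e. The limit given above for shared stretches of human genes holds for these counts too. The ATF4 arm's median log2 change was 0.53 and the ER arm's 0.10, beside 0.03 over all genes tested. The libraries stood far apart within groups: chi-square per degree of freedom was 14.06 between BNC replicates 4 and 5, 310 and 293 between each of these and replicate 6, and 128.88 between the NC libraries.

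BNC replicate 6 was the highest of the 5 libraries for 17 of 20 ATF4 arm members, and NC replicate 4 the lowest for 16. Trib3 had 12.01, 14.9 and 93.6 CPM in BNC replicates 4, 5 and 6, and 3.47 and 30.1 CPM in NC replicates 4 and 5. Aldh1l2 had 26.1, 24.2 and 295 CPM in BNC, and 10.1 and 54.8 CPM in NC. Vldlr had 14.7, 15.4 and 112 CPM in BNC, and 24.2 and 14.2 CPM in NC. In all 3 genes replicate 6 was the highest library and replicates 4 and 5 lay within the NC range, a pattern named after its values were seen. Without replicate 6, edgeR again called 0 members of either arm. It had called 0 genes with all 5 libraries, so this count says nothing about replicate 6. In fits without each single library the log2 change of Atf4 ran from 0.29 to 0.73 and that of Asns from 0.25 to 0.73. Those of Ddit3 and Stc2 ran from 0.57 to 2.43 and from 1.28 to 5.31. Atf4 had 388, 393 and 653 CPM in BNC, and 308 and 329 CPM in NC (0.59 ± 0.30, adjusted p = 0.814). Cebpb had 40.03, 30.9 and 32.9 CPM in BNC, and 17.5 and 19.3 CPM in NC. Stc2 had 5.28, 5.24 and 24.8 CPM in BNC, and 0.290 and 3.94 CPM in NC (2.46 ± 1.36, adjusted p = 0.823), where 0.290 CPM stands for 4 reads. Asns had 225, 214 and 364 CPM in BNC, and 161 and 207 CPM in NC (0.54 ± 0.31, adjusted p = 0.838). Atf4, Cebpb, Stc2 and Asns were the 4 members whose BNC libraries all lay above the NC libraries, where 11.2% of all genes tested did. In 0 members they all lay below, where 12.8% of all genes tested did. Ddit3 overlapped, with 17.2, 18.2 and 49.0 CPM in BNC and 5.21 and 18.3 CPM in NC.

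In the ER arm NC replicate 4 was the lowest library for 9 of 14 members and NC replicate 5 the highest for 8, and for 5 members the NC libraries lay on both sides of all BNC libraries. Hspa5 had 1214, 1245 and 1098 CPM in BNC, and 730 and 1230 CPM in NC. Xbp1 had 72.7, 77.3 and 87.0 CPM in BNC, and 45.6 and 105 CPM in NC. Calr had 1089, 1021 and 1112 CPM in BNC, and 631 and 1250 CPM in NC. For these 3 genes NC replicate 4 was the lowest library and NC replicate 5 lay within or above the BNC values. Cell type markers differed between groups as well: summed mesothelial markers ran from 133 to 886 CPM in BNC and from 955 to 1795 CPM in NC, and 2 of 10 reached 1 CPM in every BNC library, against 7 of 10 in NC. Summed endothelial markers ran from 0.703 to 3.39 CPM in BNC and from 9.85 to 51.3 CPM in NC, and summed leukocyte markers were at most 4.04 CPM in either. Their part in the module's values was not tested, and in such bulk libraries fewer cells of a type and less RNA per cell cannot be told apart. Of 70 genes tested from the other pathway lists edgeR called 0 between BNC and NC. With edgeR 6 of them had an unadjusted p under 0.05, where 6.73% of all genes tested did. By limma-voom 0 of the 70 were called. DESeq2 called 4 (Eprs, Lars, Slc7a11 and Eif2ak1, named after their values were seen), where it called 302 of all 12225 genes.

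**Figure D5:**
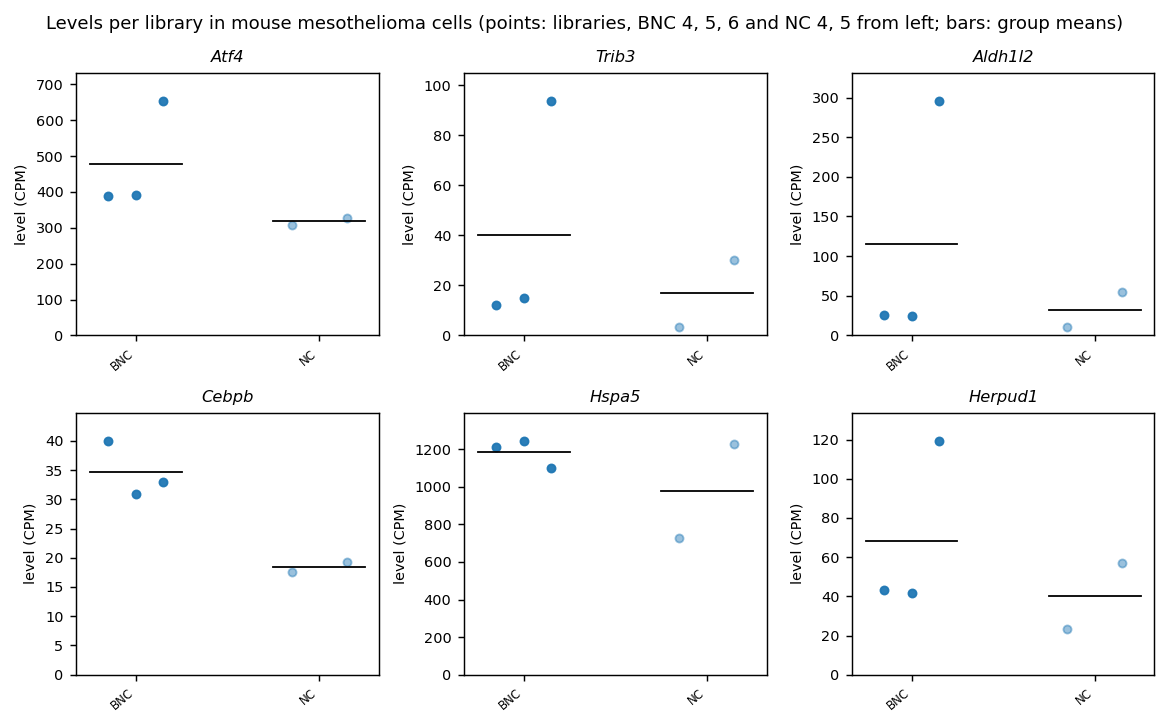
CPM in each mouse library (points, with BNC replicates 4, 5, 6 left of NC replicates 4, 5) and group mean (bars) for members of both arms. BNC replicate 6 is the highest point for Atf4, at 653 CPM, and for Trib3, at 93.6 CPM.

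Across the human groups the ATF4 transcript spanned a narrow range, from a mean of 172 ± 2.17 CPM in H2810 with GSK126 to 294 ± 7.71 CPM in H2731 with GSK126. Next to it stood H2731 with DMSO (279 ± 5.38 CPM), MSTO-211H with the random shRNA (258 ± 7.51 CPM) and with shBAP1 (255 ± 7.97 CPM), and then H2810 with DMSO (197 ± 1.08 CPM), with shBAP1 (194 ± 0.445 CPM) and with the random shRNA (194 ± 7.10 CPM). The 2 groups of MSTO-211H, and H2810 with shBAP1 and with the random shRNA, differed by less than the larger of their SDs, and the other neighbours by more. Levels from the knockdown table and the drug table were normalised apart, so their order across tables is a description. SLC7A5 spanned more, from 58.0 ± 3.81 CPM in H2810 with DMSO to 1019 ± 14.6 CPM in MSTO-211H with the random shRNA.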

How the data were processed

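RNA was measured by poly-A TruSeq libraries and single-end HiSeq reads of 65 bases, per the labels' protocols. Per the submitters' processing notes, TopHat2 2.0.12, TopHat, HTSeq and DESeq2 were used, with no role given, and the builds named are mm10 and GRCm38. The deposited values are raw counts per gene in 3 tables, made by the authors with no normalization. In the knockdown counts, 1 row without a gene name, holding 0 counts, was dropped.

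Fits were made table by table, over all groups of a table, with edgeR 4.0.16 (R 4.3.3): filterByExpr, TMM factors, quasi-likelihood F tests and Benjamini-Hochberg adjustment over the 15872 (knockdown), 15999 (drug) or 12225 (mouse) genes tested. The fits were run on simulated counts whose changes were larger than most changes within a human line. That run cannot speak for the smaller changes reported here or for the outlying mouse libraries. Groups follow the labels, and no replicate block was used. The alternatives were RLE size factors, no filter on low counts, a minimum of 50 counts in 2 libraries, limma-voom (limma 3.58.1), DESeq2 1.42.0, a replicate block, only the 2 groups in question, and fits without each single library.

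Named in every comparison were ATF4, DDIT3, ASNS, XBP1 and HSPA5, then up to 8 called members of each arm with the smallest p, the member of each arm with the largest change among groups that do not overlap, and up to 2 called genes from each list of other pathway genes. Further members were named to account for the whole arm, after their values were seen. The members and lists were chosen with earlier results of these data known.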

Additional observations from a re-analysis of the deposited data

Results flagged for a closer look

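Each of these members changed differently in a pair of cell lines, by a test of the difference itself (edgeR, adjusted p under 0.05 over all genes tested). The values are differences of log2 fold changes. No explanation was tested.

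For shBAP1 over random shRNA, MSTO-211H minus H2810, 10 members of the ATF4 arm differed, where 27.7% of all genes tested were called. The transporter SLC7A5 differed by -1.28. Among the enzymes, ASNS differed by -0.93, SHMT2 by -0.70, PHGDH by -0.60, PSPH by -0.25 and PSAT1 by -0.24. STC2 differed by -0.69, TRIB3 by -0.49, CEBPG by -0.42 and DDIT4 by -0.40. For PSAT1, PSPH and the others the sign says only that the response was lower in MSTO-211H. PSAT1 rose and PSPH fell in both lines, but the PSPH call in H2810 was lost under some alternatives, among them DESeq2. In the ER chaperone arm HSPA5 differed by -0.55, MANF by -0.48, XBP1 by -0.35, HSP90B1 by -0.28, DNAJB9 by -0.28 and PDIA4 by -0.23, and HERPUD1 differed by 0.40. The calls of ASNS, DNAJB9 and PDIA4 were lost under 4, 9 and 9 of 14 alternatives.

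For GSK126 over DMSO, H2731 minus H2810, 6 members of the ATF4 arm differed, where 14.7% of all genes tested were called. ATF4 differed by 0.27, PSPH by 0.25, PSAT1, PHGDH and MTHFD2 by 0.21 each, and NUPR1 by -0.51. The count of 6 was 2 with DESeq2. In the ER chaperone arm DNAJC3 differed by 0.67, HERPUD1 by 0.52, DNAJB9 by 0.37 and SEL1L by 0.25. The calls of PSAT1, PHGDH, PSPH, MTHFD2, NUPR1 and DNAJB9 were lost under 5, 4, 3, 1, 3 and 7 of 14 alternatives. XBP1 in the first comparison and NUPR1 in this one rose in both lines, by unequal amounts.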

How the results depend on the processing

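Of the 18 counts of called members, 14 stayed within 1.5 times under every alternative run. With shBAP1 in MSTO-211H the ATF4 arm count of 14 fell to 9 under DESeq2, and without single libraries ran from 9 to 15. With GSK126 in H2731 the ER arm count of 5 fell to 2 under DESeq2, and without single libraries ran from 2 to 5. The drug response difference counted 6 ATF4 arm members, but 2 under DESeq2 and 3 to 7 without single libraries. In the mouse the ATF4 arm count of 0 was 1 with DESeq2. The cause was not tested. Single values were followed only for members picked by the naming rule above, which favours the smallest p, and not for the other called members. Of 126 such called log2 fold changes 106 kept their call and direction under every alternative, 20 lost the call under at least 1, and 0 reversed. The share kept is therefore not that of all called members.

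Of 23 values that were not called, 8 changed sign somewhere and 3 became called: DDIT3 with shBAP1 in MSTO-211H under 8 of 15 alternatives, and the drug response differences of XBP1 and HSPA5 under 5 and 1 of 14. ATF4 with shBAP1 in MSTO-211H was 0.02 with RLE factors and with DESeq2, and its response difference was 0.01 with the stricter filter. Without single libraries these ran from -0.05 to 0.02 and from -0.09 to 0.02. On the same terms the DDIT3 response difference to shBAP1 ran from -0.04 to 0.21, ASNS with GSK126 in H2810 from -0.39 to 0.18, its drug response difference from -0.39 to 0.18, and XBP1 with GSK126 in H2731 from -0.05 to 0.10. In the mouse Xbp1 ran from -0.41 without NC replicate 4 to 0.79 without NC replicate 5, and Hspa5 from -0.05 to 0.70 without the same libraries.

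Libraries of the same replicate number did not deviate together throughout: the correlation of their deviations ran from -0.128 to 0.144 in the knockdown table and from -0.0141 to 0.142 in the drug table, and was 0.311 and -0.27 in the mouse, and the numbers were not read as pairs. With a replicate block the ATF4 arm counts were 14 and 15 with shBAP1 in H2810 and MSTO-211H, 12 and 10 with GSK126 in H2810 and H2731, and 0 in the mouse, and the ER arm counts 7, 10, 8, 5 and 0 in that order. The fit of only the 2 groups compared cannot be made for a response difference, and in the mouse it is the fit reported. Depth limits CHAC1 in H2810, with 1 to 9 reads per library, ALDH1L2 in MSTO-211H and H2731, with 1 to 9 reads, and human ASNS.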
